A study of Mus musculus with 11 samples.

Results

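Most mouse genes whose symbol is Atp followed directly by a number encode proteins that use ATP to carry ions or lipids across membranes. In the striatal RNA-seq table, 9 of 1767 listed genes met this symbol rule, and 8 of them are described. These were 5 ion pumps and transporters (Atp1a4, Atp2a3, Atp2c1, Atp13a3 and Atp13a5), 2 members of the lipid flippase family (Atp9a and Atp11b), and Atp5sl. Of 25 names of vacuolar ATPase genes, 0 were among the listed genes. Atp5sl carries the name of ATP synthase, but RefSeq lists it as a synonym of Dmac2, an assembly factor of respiratory complex I. The described group thus held no subunit of a proton ATPase.

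Male C57BL/6 mice received an AAV1/2 vector into the striatum of both hemispheres at the age of 6 weeks, and the tissue was taken 3 weeks later. The control vector carried EmGFP with the non-targeting miR-NT2 (NT2, n = 6), and the knockdown vector carried EmGFP with miR RNAi against NF-YA and NF-YC (YAYC, n = 5), both under the CAG promoter. Cells were dissociated with papain and sorted for EmGFP, and amplified cDNA was sequenced in single reads of 50 bases. Samples are named by the numbers in their labels, which are 3, 5, 7, 9, 21 and 23 for NT2 and 4, 6, 8, 10 and 22 for YAYC. The labels do not tie a sample to a mouse, so that p-values measure the spread between these samples.

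The CAG promoter is active in many cell types, and the study names infection or carry-over of glial cells as possible. The counts of the listed genes summed to between 1581757 and 3141324 (median 2673735) in the NT2 samples and between 1954949 and 3010153 (median 2281409) in the YAYC samples, which is not the depth of the whole libraries. All values below are estimated counts divided by a scaling factor per sample, called scaled counts. All 1767 listed genes have a deposited p-value under 0.05 for the same contrast. Tests on them therefore describe genes already chosen for a difference between these groups and are not independent support for one.

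The knockdown target Nfyc, a subunit of the NF-Y transcription factor, had scaled counts of 926.8, 792.4, 845.1, 568.8 and 695.7 in YAYC samples 4, 6, 8, 10 and 22. In the NT2 samples it ranged from 804.4 to 1178 with a median of 948.5. All 5 YAYC samples were below the NT2 median, and 3 of them were below every NT2 sample, while samples 4 and 8 lay within the NT2 range. Its log2 fold change was -0.32 ± 0.14 (SE), and the quasi-likelihood test of edgeR, adjusted by the Benjamini-Hochberg method, gave an adjusted p of 0.0531. With TMM scaling the log2 fold change was -0.19 at an adjusted p of 0.255, and the DESeq2 test gave 0.237. With the glial marker score described below as a term, it was -0.6 ± 0.18 (SE) at an adjusted p of 0.0741 in edgeR's test. The vascular marker score as a term gave -0.48 ± 0.27 at 0.396. The adjusted p was 0.123 without YAYC sample 10, 0.0810 among samples 3 to 10 and 0.0391 with the number block of the labels (3 to 10 against 21 to 23) as a term. Without YAYC sample 4 it was 0.0449, and without NT2 sample 23 it was 0.0496. Nfya, the other target, is not among the listed genes and was not analysed here.

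P-type ATPases form a phosphorylated intermediate on an aspartate during each transport cycle. The sodium pump exports sodium and imports potassium, and the gradients it builds drive the uptake of transmitters and the recovery of ions after neuronal firing. Its alpha subunits are encoded by several genes that are spread over cell types. Calcium pumps fill the endoplasmic reticulum and the Golgi, the P5 group carries polyamines and other substrates, and flippases move phospholipids from the outer or luminal leaflet to the cytosolic leaflet.

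Of the 8 Atp genes, 6 were called lower and 1 was called higher in YAYC at an adjusted p under 0.05, against 47.3% and 32.2% of all listed genes called in these directions. The genes called lower were Atp1a4, Atp2a3, Atp2c1, Atp13a5, Atp9a and Atp11b, and Atp5sl was called higher. Atp13a3 missed the threshold. At an unadjusted p under 0.05 and a fold above 1.2, 7 were lower and 1 higher, against 47.1% and 34.2% of all listed genes. Leaving out each sample in turn gave from 2 Atp genes called lower (without YAYC sample 4, against 30.3% of all listed genes) to 6. The call of Atp5sl was lost in 10 of these 11 fits, in which between 20.1% and 24.8% of all listed genes were called higher. It was kept only without NT2 sample 3, which stood apart from 4 of the other 5 NT2 samples. In that fit 32.1% of all listed genes were called higher, and 4 Atp genes were called lower, against 44.7% of all listed genes. The log2 fold changes of the Atp genes had a median of -0.50, and those of all listed genes had a median of -0.27. The ranges of the scaled counts overlapped between the groups for every Atp gene, so that 0 of 8 were separated, against 13% of all listed genes.

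With scaling by TMM, which takes most rows as unchanged, the log2 fold changes of all listed genes shifted by a median of 0.13. The calls over the table then changed from 836 lower and 569 higher to 377 lower and 689 higher. At this scaling, 3 Atp genes were called lower (Atp1a4, Atp9a and Atp13a5), against 21.3% of all listed genes, and Atp5sl was called higher. No Atp gene changed direction with TMM scaling or with DESeq2 size factors.

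**Figure D1:**
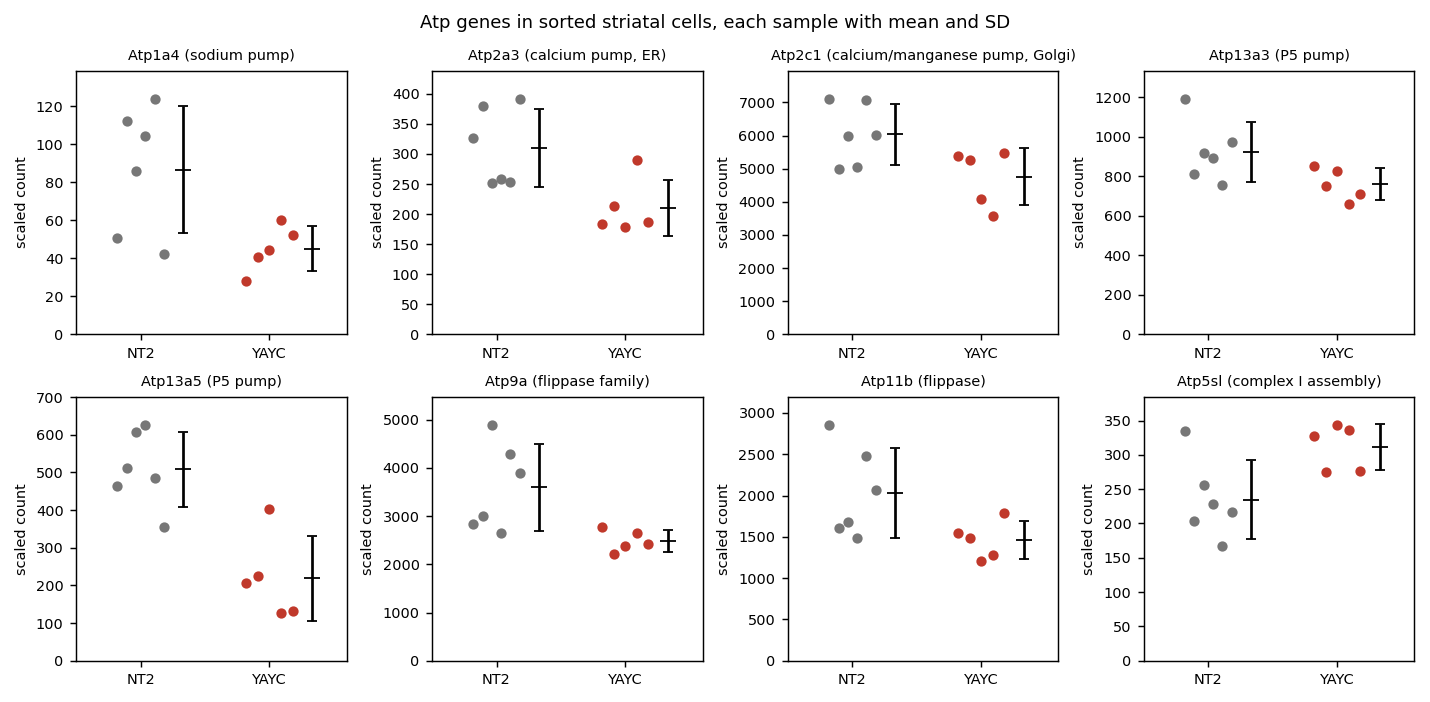
Scaled counts of the 8 Atp genes in each NT2 (grey, n = 6) and YAYC (red, n = 5) sample, with axes from 0 and the mean and SD in black beside the points. The YAYC samples lie low for Atp13a5 and high for Atp5sl, and the groups overlap in every panel.

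Per kilobase of the longest GENCODE transcript, Atp2c1 had the highest level of the 8 genes in NT2, at 1069 ± 164 scaled counts per kilobase (SD, n = 6). Atp9a followed at 963 ± 242, within the spread of Atp2c1. Atp11b stood at 321 ± 85.8, apart from Atp9a above it and from Atp13a3 below it. Atp13a3 (126 ± 20.8), Atp13a5 (111 ± 21.6) and Atp5sl (98.3 ± 24) overlapped with each other within mean ± SD, and Atp5sl also overlapped with Atp2a3 in this way. Atp2a3 had 67.4 ± 14.0 and Atp1a4 25 ± 9.63 scaled counts per kilobase, the lowest levels of the group. In YAYC (n = 5) Atp5sl, at 131 ± 13.9 per kilobase, stood above Atp13a3 at 104 ± 11 and Atp13a5 at 47.5 ± 24.4.

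Atp1a4 encodes the alpha4 subunit of the sodium pump, known mainly from sperm, and lies at chr1:174153639-174188555 on the minus strand (mm9). It had the fewest counts of the group, between 42.6 and 124.0 scaled counts in NT2 with a median of 95.1. The YAYC samples 4, 6, 8, 10 and 22 had 28.4, 40.8, 44.3, 60.1 and 52.6. All of them lay below the NT2 median, but NT2 samples 3 and 23, at 50.7 and 42.6, lay among the YAYC samples, while the other 4 NT2 samples were above all of them. Atp1a4 fell by 0.93 ± 0.32 (SE) on the log2 scale, with an adjusted p of 0.0292 in edgeR's quasi-likelihood test. Its adjusted p was 0.0503 without NT2 sample 5, 0.0558 without NT2 sample 21, 0.0559 without YAYC sample 4 and 0.0540 without YAYC sample 6. Among the samples numbered 3 to 10 alone, the adjusted p was 0.0589 at a log2 fold change of -1.02. The alpha subunit genes are similar in sequence, so that the low count of Atp1a4 is uncertain. Atp1a4 shared 0 windows of 50 bases, the read length, with any other described Atp gene. How far its count holds reads of genes outside this group, such as the other alpha subunit genes, was not tested.

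Listed astrocyte markers were lower in YAYC, as Atp1a4 was. Names not listed, Gfap and Aqp4 among them, could not be described, so that these values hold only for markers chosen for a difference. Of 18 astrocyte markers, 7 were listed (Slc1a3, Gja1, Gjb6, Aldoc, Fgfr3, Acsbg1 and Glul), and all 7 were called lower, against 47.3% of all listed genes, with a median log2 fold change of -1.29. Their summed scaled count was 31846, 70389, 59944, 54050, 94769 and 36605 in NT2 samples 3, 5, 7, 9, 21 and 23. It was 20574, 21903, 28039, 33353 and 38068 in YAYC samples 4, 6, 8, 10 and 22. NT2 samples 3 and 23, which were low for Atp1a4, were also the lowest NT2 samples for this sum. Slc1a3 was the most abundant of the 7, with a mean scaled count of 13892 over all samples. Glul had the smallest change of the 7, with a log2 fold change of -0.29 ± 0.12 (SE). Of the 19 listed markers of all cell types, 0 had a count of 0 in any sample.

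The scaled count of Atp1a4 was 0.150% ± 0.0267 (SD, n = 6) of the astrocyte sum in NT2 and 0.160% ± 0.0226 (n = 5) in YAYC, a difference smaller than the spread between samples. In bulk samples, fewer cells of a type and less RNA per cell cannot be told apart. With a glial marker score as a term in the fit, the log2 fold change of Atp1a4 was -0.03 ± 0.35 (SE), with an adjusted p of 0.952 in edgeR's test. The score is the mean log2 scaled count of the 9 listed astrocyte, oligodendrocyte and microglia markers, each centred, and lay between -0.52 and 1.23 in NT2 and between -0.97 and -0.12 in YAYC. All 9 markers were listed for a difference between these groups and were called lower. The term thus carries part of the group difference, and the fit cannot separate glial content from group. In that fit 1 Atp gene was called lower, Atp13a3, against 0.396% of all listed genes. Atp2a3 (-0.65 ± 0.26), Atp2c1 (-0.45 ± 0.20) and Atp11b (-0.62 ± 0.23) were not called there, although their log2 fold changes were more negative than in the main fit. With the vascular marker score described below, Atp1a4 was at -0.94 ± 0.70.

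**Figure D2:**
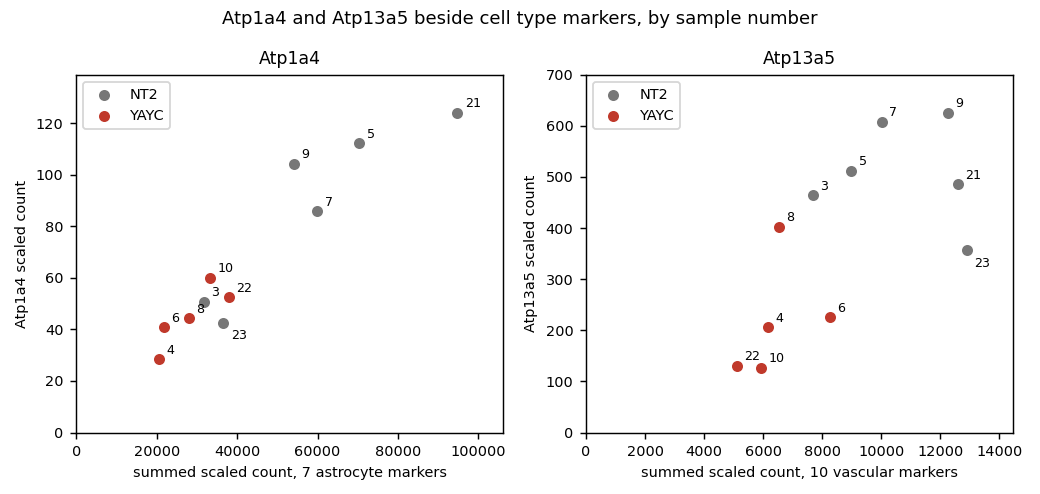
Scaled count of Atp1a4 against the summed scaled count of the 7 listed astrocyte markers (left) and of Atp13a5 against that of the 10 listed vascular markers (right), with 1 point per sample labelled by its number (NT2 grey, YAYC red). NT2 samples 3 and 23 lie among the YAYC samples for Atp1a4, and YAYC sample 8 is the highest YAYC sample for Atp13a5.

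Atp2a3 encodes SERCA3, a calcium pump of the endoplasmic reticulum known from blood, epithelial and endothelial cells, and lies at chr11:72774671-72806545 on the plus strand (mm9). Its scaled count was 252.4 at the lowest, 292.7 at the median and 391.5 at the highest in NT2, and 183.7, 213.8, 178.0, 289.9 and 186.1 in YAYC samples 4, 6, 8, 10 and 22. Of the YAYC samples, 4 lay below every NT2 sample, and sample 10 lay within the NT2 range. Atp2a3 fell by 0.56 ± 0.19 (SE) on the log2 scale, with an adjusted p of 0.0267 in edgeR's test. Its adjusted p was 0.0503 without YAYC sample 4 and 0.0529 without YAYC sample 8, and with TMM scaling it was 0.0709 at a log2 fold change of -0.43.

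Atp2c1 encodes SPCA1, which brings calcium and manganese into the Golgi, from chr9:105313692-105429649 on the minus strand. Its scaled count ran from 4981 through a median of 5999 to 7104 in NT2, and was 5395, 5267, 4093, 3570 and 5472 in YAYC samples 4, 6, 8, 10 and 22. YAYC samples 8 and 10 were below all NT2 samples, and the other 3 lay within the lower part of the NT2 range. Atp2c1 fell by 0.34 ± 0.15 (SE) on the log2 scale with an adjusted p of 0.0475 in edgeR's test, which was the smallest change among the genes called lower. This call was kept without NT2 sample 5 or NT2 sample 9, at adjusted p of 0.0454 and 0.0453. It was lost without any 1 of the other 9 samples, with adjusted p up to 0.109 without YAYC sample 10, and with the number block as a term it was 0.0599. With TMM scaling the log2 fold change was -0.21 at an adjusted p of 0.202. Atp2c1 overlaps Aste1 and Gm19667 on the opposite strand in GENCODE, and since the strand of the counting is not given in the sources used here, its count may hold their reads. Atp1a4 likewise overlaps Gm37950 on the opposite strand. On the same strand, Atp13a5 overlaps the processed pseudogene Gm15752, Atp11b overlaps Gm43203 and Atp9a overlaps Mir7004, whose reads their counts may hold.

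Atp13a5 is a P5 pump whose substrate is not settled and which marks pericytes, the contractile cells of brain capillaries. In NT2 it had 356.1 scaled counts at the lowest, 499.0 at the median and 625.2 at the highest. YAYC samples 4, 6, 8, 10 and 22 had 205.7, 225.2, 402.9, 126.9 and 131.1. Only YAYC sample 8 reached into the NT2 range, above NT2 sample 23, and the other 4 were below all NT2 samples. Atp13a5 fell by 1.23 ± 0.28 (SE) on the log2 scale, with an adjusted p of 0.0115 in edgeR's test, the largest change of the 8 genes. Of the listed genes, 7.1% had a more negative fold change. The call was kept without any 1 of the 11 samples, where the log2 fold change ran from -1.57 to -1.08. It was lost with the glial marker score as a term, at -1.20 ± 0.42 and an adjusted p of 0.103. Among the samples numbered 3 to 10 alone it was the only Atp gene called lower, with a log2 fold change of -1.21 and an adjusted p of 0.0399, against 11% of all listed genes.

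Of the vascular markers too, only listed ones could be described, and these were lower as well. Of 14 vascular markers, 10 were listed and 9 were called lower, against 47.3% of all listed genes, with a median log2 fold change of -0.68. Slc22a8, an organic anion transporter of the blood-brain barrier, fell by 1.36 ± 0.18 (SE) on the log2 scale with an adjusted p of 0.00101 in edgeR's test. Rgs5, a pericyte marker, fell by 0.94 ± 0.22 with an adjusted p of 0.0117. Abcc9, also a pericyte gene and the 1 marker not called, was named after its values were seen. Its log2 fold change was -0.53 ± 0.24 with an adjusted p of 0.0594, and YAYC sample 22, at 370.2, lay near the highest NT2 value of 377.5. The summed scaled count of the 10 genes was 7672, 8989, 10012, 12274, 12610 and 12914 in NT2 samples 3, 5, 7, 9, 21 and 23. It was 6155, 8259, 6527, 5941 and 5113 in YAYC samples 4, 6, 8, 10 and 22. YAYC sample 6 alone overlapped with NT2, and Slco1a4 was the most abundant of the 10 genes, with a mean scaled count of 2612.

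Rgs5 and Abcc9, the pericyte genes named above, had mean scaled counts of 365.4 and 324.5 in NT2, against 10745 for the vascular sum. The sum and the score used below thus rest mostly on other vascular genes. Atp13a5 had 4.92% ± 1.34 (SD, n = 6) of the vascular sum in NT2 and 3.39% ± 1.61 (n = 5) in YAYC, and Atp2a3 had 3.02% ± 1.01 and 3.36% ± 0.938. The Atp13a5 shares overlapped through YAYC sample 8 at 6.17% and NT2 sample 23 at 2.76%. The other NT2 samples had 3.86% to 6.07%, and the other YAYC samples had 2.14% to 3.34%. The Atp2a3 shares were mixed between the groups, at 2.02% to 4.26% in NT2 and 2.59% to 4.88% in YAYC. A vascular marker score was used as a term in a fit chosen after seeing the data; it lay between -0.06 and 0.61 in NT2 and between -0.60 and -0.07 in YAYC, so that it separated the groups and the term and the group can hardly be told apart. In that fit the log2 fold change of Atp13a5 was -1.03 ± 0.56 (SE) with an adjusted p of 0.385 in edgeR's test, and 0 Atp genes were called lower, against 0.0566% of all listed genes. At an unadjusted p under 0.05, 1 Atp gene passed in that fit, against 13.9% of all listed genes, and no other tool was run with this term.

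Atp13a3 encodes a P5 pump that takes up polyamines. Its scaled count was between 758.2 and 1192 in NT2, with a median of 906.2, and 853.7, 748.8, 825.8, 659.5 and 709.0 in YAYC samples 4, 6, 8, 10 and 22. All 5 YAYC samples were below the NT2 median and 3 were below every NT2 sample. The log2 fold change was -0.28 ± 0.13 (SE) with an adjusted p of 0.0520 in edgeR's test. With TMM scaling it was -0.16 at an adjusted p of 0.302, and with DESeq2 size factors -0.17 at 0.253. Without YAYC sample 10 the adjusted p was 0.113, without NT2 sample 21 it was 0.0451, with only genes whose highest count is at least 200 it was 0.0496, and with the glial marker score as a term it was 0.0396 at a log2 fold change of -0.61. Atp13a3 and Atp13a5 both lie on the minus strand of chromosome 16, at chr16:30312510-30388616 and chr16:29232000-29378818 (mm9), 933691 bases apart.

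Atp9a belongs to the flippase family, works in endosomes and, unlike most members, needs no Tmem30 partner. It lies at chr2:168459938-168567631 on the minus strand. Its scaled count was 2646 at the lowest, 3451 at the median and 4882 at the highest in NT2, and 2767, 2221, 2369, 2640 and 2410 in YAYC samples 4, 6, 8, 10 and 22. The YAYC samples lay close together, and 4 of them were below all NT2 samples. Atp9a fell by 0.53 ± 0.16 (SE) on the log2 scale with an adjusted p of 0.0217 in edgeR's test. It was also called without any 1 of the 11 samples, with adjusted p between 0.00867 and 0.0425. The call was lost with the glial marker score as a term (-0.32 ± 0.22, adjusted p 0.314), among samples 3 to 10 (-0.42, 0.105) and with the vascular score (-0.36, 0.553). NT2 samples 7, 21 and 23, at 4882, 4289 and 3900, lay above the other 3. The same 3 samples were the highest for the oligodendrocyte marker Ugt8a, which was noticed after the values were seen. The coefficient of variation was 25.1% in NT2 and 8.84% in YAYC.

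Atp11b is a flippase of endosomal membranes that works with a Tmem30 subunit, and its gene lies at chr3:35653060-35755198 on the plus strand. It had 1483, 1874 and 2851 scaled counts at the lowest, median and highest in NT2, and 1548, 1487, 1208, 1278 and 1786 in YAYC samples 4, 6, 8, 10 and 22. The groups overlapped widely, with 3 YAYC samples inside the NT2 range and 3 NT2 samples below the highest YAYC sample. Atp11b fell by 0.47 ± 0.18 (SE) on the log2 scale with an adjusted p of 0.0362 in edgeR's test. The call was kept without NT2 sample 5, 7 or 9 or YAYC sample 22. It was lost without NT2 sample 3, 21 or 23 or YAYC sample 4, 6, 8 or 10, with adjusted p from 0.0517 to 0.0714, and with TMM scaling the log2 fold change was -0.34 at an adjusted p of 0.111.

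Atp5sl (Dmac2) takes part in building the membrane arm of complex I, and its gene lies at chr7:26404450-26410569 on the plus strand (mm9). It was the only Atp gene that was higher in YAYC, where samples 4, 6, 8, 10 and 22 had 327.5, 275.5, 343.2, 336.1 and 276.4 scaled counts. In NT2 the lowest was 167.1, the median 223.0 and the highest 334.6. The highest NT2 value was that of sample 3, and the other 5 NT2 samples were below every YAYC sample. Atp5sl rose by 0.41 ± 0.17 (SE) on the log2 scale with an adjusted p of 0.0453 in edgeR's test. The call was kept without NT2 sample 3, at an adjusted p of 0.0107, and lost without any 1 of the other 10 samples, with adjusted p between 0.0549 and 0.0883. With the number block as a term the adjusted p was 0.0501. A glial score term gave a log2 fold change of 0.07 ± 0.21 at an adjusted p of 0.792, and a vascular score term gave -0.04 ± 0.31.

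**Figure D3:**
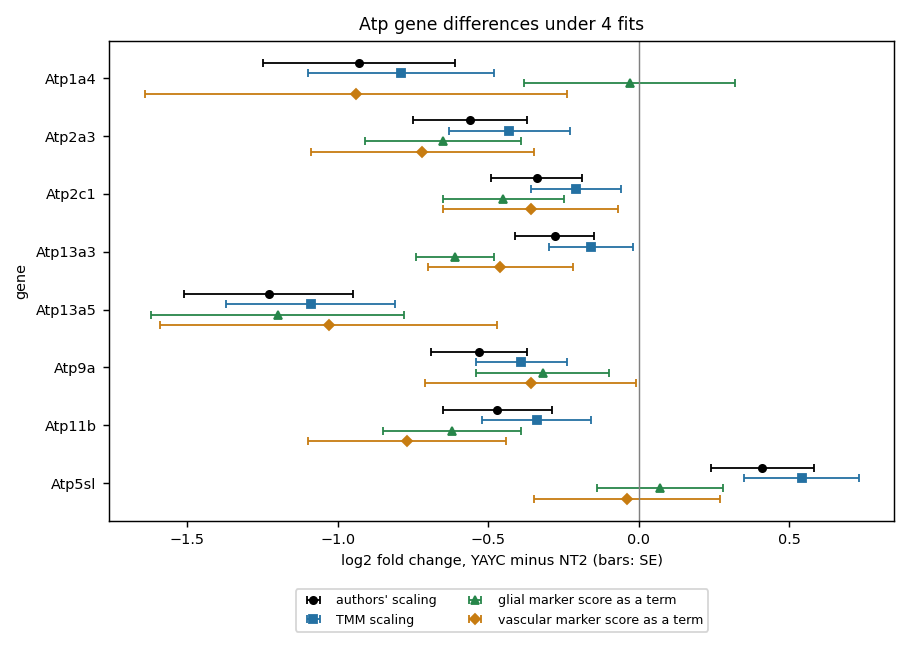
Log2 fold change, YAYC minus NT2, of each Atp gene with its SE, in fits with the scaling of the authors, TMM scaling, a glial marker score as a term and a vascular marker score as a term. With the glial term Atp1a4 moves from -0.93 to -0.03, Atp5sl moves from 0.41 to 0.07 with the glial and to -0.04 with the vascular term, and Atp13a5 lies between -1.23 and -1.03 in the 4 fits and is not called with either score. Atp2a3, Atp2c1 and Atp11b lie further from 0 with either term than in the main fit, with larger SE.

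The other names of each group were mostly not among the listed genes. The list of sodium and proton pumps as used here has 10 names, of which 1 was listed, the calcium pumps 9 with 2, the P5 group 5 with 2 and the flippases 15 with 2. Of 2 copper pumps, 0 were listed. Of 34 names of ATP synthase genes 1 was listed, Atp5sl, and of 66 subunits of the respiratory chain 0 were listed.

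Of 36 partners of the pumps, 3 were listed, with 1 called lower and 1 called higher, against 47.3% and 32.2% of all listed genes. The FXYD proteins are small regulators of the sodium pump. Fxyd6 had scaled counts of 637.2, 467.9, 629.6, 359.6 and 350.2 in YAYC samples 4, 6, 8, 10 and 22 and between 485.0 and 1467 in NT2, and fell by 0.98 ± 0.32 (SE) on the log2 scale with an adjusted p of 0.0265 in edgeR's test. This call was lost without YAYC sample 22, at an adjusted p of 0.0503, and with the glial score as a term, at 0.392 and a log2 fold change of -0.63. Fxyd7, a neuronal regulator, had 431.5, 280.4, 200.9, 512.1 and 325.4 in the same YAYC samples and between 47.8 and 198.3 in NT2. Its groups did not overlap, and it rose by 1.69 ± 0.35 (SE) with an adjusted p of 0.00811. The call of Fxyd7 was lost with the glial score (1.40 ± 0.48, adjusted p 0.102) and with the vascular score (0.93 ± 0.66, 0.460). Nptn, neuroplastin, an auxiliary subunit of plasma membrane calcium pumps, had a mean of 4522 ± 502.3 (SD, n = 6) in NT2 and 5129 ± 231.6 (n = 5) in YAYC, with an adjusted p of 0.0830. With TMM scaling the adjusted p of Nptn was 0.0262, and without NT2 sample 3 it was 0.0299.

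Of 37 ion carriers that run on pump gradients, 6 were listed, with 5 called lower and 1 called higher, against 47.3% and 32.2% of all listed genes, and a median log2 fold change of -0.65. The glutamate transporter Slc1a3, also counted among the astrocyte markers, fell by 1.03 ± 0.24 (SE), and the GABA transporter Slc6a11 fell by 1.42 ± 0.38. The glycine transporter Slc6a9 fell by 0.75 ± 0.20, and Slc12a2, the sodium-potassium-chloride cotransporter, fell by 0.56 ± 0.14. The bicarbonate transporter Slc4a8, known from neurons, rose by 0.72 ± 0.20. Adjusted p of these 5 genes in edgeR's test lay between 0.0122 and 0.0187. Slc4a7, another bicarbonate transporter, fell by 0.31 ± 0.12 with an adjusted p of 0.0425. That call was kept without NT2 sample 21 or 23 or YAYC sample 6 and lost without any 1 of the other 8 samples, with adjusted p up to 0.0846, and with TMM scaling the adjusted p was 0.244. In the fit with the glial score, the log2 fold change of Slc6a11 was 0.05 ± 0.23 and the calls of all 6 were lost, where 0.396% of all listed genes were called lower and 1.47% higher. Slc1a3, at -0.27 ± 0.16, is part of that score. Slc6a9 was at -0.56 ± 0.29, Slc12a2 at -0.42 ± 0.20, Slc4a8 at 0.43 ± 0.27 and Slc4a7 at -0.55 ± 0.16, more negative than in the main fit. With the vascular score as a term, Slc4a8 was at 0.1 ± 0.34 and Slc12a2 at -0.21 ± 0.27. Slc6a9 was at -0.6 ± 0.44, Slc4a7 at -0.45 ± 0.24, Slc1a3 at -1.28 ± 0.52 and Slc6a11 at -1.88 ± 0.9 there. None of the 6 was called in that fit, where 0.0566% of all listed genes were called lower and 0.226% higher. Among samples 3 to 10, Slc4a8, Slc12a2 and Slc6a9 were not called, at adjusted p of 0.0589, 0.0635 and 0.0761.

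Of 15 oligodendrocyte markers 1 was listed, Ugt8a, with a log2 fold change of -0.64 ± 0.21 (SE) and an adjusted p of 0.0267 in edgeR's test. Of 12 microglia markers 1 was listed, P2ry12, at -0.49 ± 0.19 and 0.0363. The scaled counts of Ugt8a lay between 10376 and 22632 in NT2 and between 9565 and 11279 in YAYC, and those of P2ry12 between 13199 and 26580 and between 12117 and 15252. Of 13 neuronal and 14 striatal projection neuron markers, 0 were listed, so that the neuronal content of the sort was not analysed here. The part of glial and vascular cells in the differences of the Atp genes was not tested. The fits with marker scores cannot decide it, since the scores are built from genes listed for a difference between the same groups.

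NF-Y binds the letters CCAAT, and these were looked for on both strands of RefSeq promoters (GRCm38.p6) from 250 bases before to 50 bases after the start. Windows were found for 7 of the 8 genes, 12 windows in all, and 2 windows held the letters, against 37.4% of all 32851 windows. The windows with the letters belonged to Atp5sl, called higher, and Atp13a5, called lower. No window was used for Atp13a3. The surroundings are shown because they are the matches among the Atp genes, with CCAAT in capitals:
Atp5sl, chr7:25619220-25619249, plus strand: taaactgaaaaaCCAATgaacgcaagagaa
Atp13a5, chr16:29378704-29378733, minus strand: taaatgaacagaCCAATactgtggccaagg
In Atp5sl, 177 bases lie between the letters and start number 1 of RefSeq, and the window of start number 2 held 0 matches. In Atp13a5 the letters begin at base 12 of the transcribed part. A match of letters is a description and does not show binding.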

How the data were processed

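RNA-seq of EmGFP-positive striatal cells from 6 NT2 and 5 YAYC samples was analysed, with groups and sample numbers taken from the labels. Estimated counts per gene from Strand NGS were deposited by the authors without normalization (54.3% were whole within 0.01). The authors also deposited log2 values, from which their scaling factors (0.66 to 1.274) were recovered over the 1247 genes whose counts exceeded 50 throughout. The deposited p-value of the authors' comparison was used only to test which genes are listed, and their fold changes were not used. The build is mm9 per the processing notes of the submitters.

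The estimated counts, rounded to whole numbers, were fitted over all 1767 listed genes with edgeR 4.0.16 (R 4.3.3), without covariates and with these scaling factors. P-values were adjusted over all listed genes by the Benjamini-Hochberg method, and a gene was called at an adjusted p under 0.05. The fit was tested on simulated data first. Alternatives were TMM, DESeq2 1.42.0 size factors and its test, a minimum of 200 for the highest count, unadjusted p under 0.05 with a fold above 1.2, the number block, marker scores, samples 3 to 10 alone, a robust fit and leaving out each sample. The other Atp genes were named, beside Nfyc and the listed genes of fixed lists of partners, carriers and markers. Of the 10 listed vascular markers, only some were named. A gene that meets the symbol rule and a carrier gene stayed in the fits and are not reported here. The genes and lists were chosen with earlier results of these data known. The pairs of samples within a group differed by more than sampling noise (chi-square per degree of freedom 21.4 to 170.3). The 4 values above 88.8, from 141.3 on, were pairs of NT2 sample 3. Transcript lengths and overlapping genes come from GENCODE M21.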

Additional observations from a re-analysis of the deposited data

How the results depend on the processing

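In the main fit 6 Atp genes were called lower in YAYC (47.3% of all listed genes). The count became 3 with TMM scaling (21.3%), 3 with DESeq2 size factors in the edgeR fit (23.4%) and 5 with the number block as a term (41.1%). It was 1 with the glial marker score (0.396%), where Atp13a3 was called and the 6 calls of the main fit were lost. It was 1 among samples 3 to 10 (11%). With the vascular marker score as a term, which was chosen after seeing the data, it was 0 (0.0566%). Leaving out each sample in turn gave from 2 (without YAYC sample 4, 30.3%) to 6, with 3 without YAYC sample 6 (27.9%) and 3 without YAYC sample 8 (30.6%), so that calls were lost over the whole table as well. The 1 gene called higher (32.2% of all listed genes) became 0 with the number block as a term (28.1%). It was also 0 with the glial score (1.47%), with the vascular score (0.226%) and among samples 3 to 10 (7.24%). When each sample was left out in turn, it was 1 without NT2 sample 3 (32.1%) and 0 in the other 10 fits (20.1% to 24.8%). The DESeq2 test gave 4 lower (26% of all listed genes) and 1 higher (38.4%), the robust fit 6 (47.4%) and 1 (32%), the count minimum of 200, which removes Atp1a4 and adds the call of Atp13a3, 6 (55.9%) and 1 (28.7%), and the unadjusted rule with a fold above 1.2 gave 7 (47.1%) and 1 (34.2%).

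The log2 fold change reversed for Slc6a11 (0.05) with the glial score as a term and for Atp5sl (-0.04) with the vascular score; the cause was not tested. Fewer samples enter the fits of samples 3 to 10, and the marker scores differ between the groups, so that these fits have larger SE for most Atp genes. The groups share no numbers and the labels do not pair samples between them, so that no paired analysis was run. Of all listed genes, 439 had a highest count under 200, Atp1a4 among them. The part of counting error in the spread of these genes was not tested.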

Other observations

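Among the 8 Atp genes, NT2 sample 3 had the highest NT2 value of Atp2c1 (7104), Atp11b (2851), Atp13a3 (1192) and Atp5sl (334.6). NT2 sample 3 also had the smallest sum of counts over the listed genes, 1581757. The coefficient of variation over the NT2 samples was 38.6% for Atp1a4, and for the other 7 Atp genes it lay between 15.4% and 26.8%. In YAYC it was 51.3% for Atp13a5, where samples 10 and 22 had 126.9 and 131.1 scaled counts and sample 8 had 402.9.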
